A study of Homo sapiens with 6 samples.

Results

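The genes described here are the 10 that encode the core microRNA machinery: AGO1, AGO2, AGO3, AGO4, DICER1, DROSHA, DGCR8, XPO5, TARBP2 and TNRC6A. They were chosen by name from the 62700 genes of the deposited gene table, and the choice used the shares of their isoforms in these libraries, a retained-intron form of AGO3 among them. All 10 passed the filter on low values. The libraries were made from TCam-2, a human testicular cancer cell line derived from a seminoma. They fall into 3 groups of 2 libraries: non-transduced WT cells, cells transduced with GFP_FLAG (a tagged green fluorescent protein) and cells transduced with RBMXL3_FLAG. RBMXL3 belongs to the RBMX family of RNA-binding proteins, and the design asks which genes differ in expression or splicing when it is overexpressed, with the WT and GFP cells as the controls. The promoter that drives the transgenes, and whether each line is a pool or a clone, are not given in the sources used here. The labels do not say that the 2 libraries of a group came from separate cultures, so p-values measure only the spread between these libraries, which may be technical.

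MicroRNAs are cut from hairpins in longer transcripts. In the nucleus the RNase III enzyme DROSHA and its RNA-binding partner DGCR8 form the microprocessor, which frees the hairpin, and XPO5 (exportin-5) carries it to the cytoplasm. There DICER1, with its partner TARBP2, cuts the hairpin to a duplex, a strand of which is loaded into an Argonaute protein. The Argonaute finds target mRNAs through the seed of the microRNA, and TNRC6 proteins, TNRC6A among them, then recruit deadenylases. In seminomas and other germ cell tumours the miR-302 cluster and the let-7 antagonist LIN28A are known to be expressed.

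Recovered read totals were lowest in the RBMXL3 group, at 17685680 and 21023355, against 23080795 to 29318007 in the 4 controls. RBMXL3 itself had 0 reads in the 4 control libraries, which allows up to 3, and 84 and 68 reads in the RBMXL3 libraries. Of the other cell types checked, the leukocyte marker PTPRC had 0 to 1 normalised reads, the fibroblast marker DCN 0 to 2, the endothelial marker PECAM1 3 to 9 and SOX2, a marker of embryonal carcinoma, 12 to 34. The matrix genes COL1A1 (206 to 407) and LUM (65 to 425) were present, and of the 3 markers of other cell types that were tested LUM was called higher in all 3 comparisons (limma log2 change of 1.33 in RBMXL3 against GFP, 2.22 in RBMXL3 against WT and 0.88 in GFP against WT). COL1A1 was called higher in RBMXL3 and in GFP cells against WT, by 0.81 and 0.65, and SOX2 in RBMXL3 cells against GFP, by 0.61. Of the 11 seminoma markers, DPPA3 had 14 to 47 normalised reads and NANOS3 87 to 153, and the lowest value of the other 9 was 1411, for KIT. KIT and LIN28A were called lower and NANOS3 higher in RBMXL3 cells against both controls, 18.2% and 9.09% of the 11, beside 6.86% and 6.88% of all genes. Against GFP 1 was higher and 2 lower, beside 10.5% and 10.4% of all genes. Against WT 2 were higher and 3 lower, beside 14.6% and 15.3%, and in GFP against WT 1 was lower, beside 1.91%. What part these shifts have in the results below was not tested, and in bulk RNA fewer cells of a type and less RNA per cell cannot be told apart.

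DROSHA, the nuclease of the microprocessor, fell in RBMXL3 cells against both controls. Its gene (ENSG00000113360.17) lies on chromosome 5, minus strand, from 31400497 to 31532196 in GENCODE 29 (GRCh38), as do all coordinates of genes here. It had 3482 and 3362 normalised reads in the WT libraries, 3231 and 2924 in GFP and 2301 and 2422 in RBMXL3, where a normalised read is a read divided by the library's size factor. Both RBMXL3 libraries were below all 4 controls. The log2 change was -0.38 (SE 0.10) against GFP, with a limma adjusted p of 0.0167, and -0.53 (SE 0.10) against WT, with a limma adjusted p of 0.00184. The call against GFP was lost without RBMXL3 replicate 1 (limma adjusted p = 0.212) or replicate 2 (0.141), and when TPM summed over transcripts replaced the gene table (0.267).

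DGCR8, the RNA-binding subunit of the microprocessor (ENSG00000128191.17, chromosome 22, plus strand, 20080232 to 20111877), did not pass the test in any comparison. Its normalised reads were 1356 and 1626 in WT cells, 1533 and 1362 in GFP cells and 1423 and 1306 in RBMXL3 cells, so the groups overlapped. The log2 change was -0.08 against GFP (limma adjusted p = 0.647) and -0.12 against WT (limma adjusted p = 0.448). Of its exon length, 7.36% lies under exons of opposite-strand genes, TRMT2A among them, and the strand setting of the counting is not given in the sources used here. The hairpins of MIR3618 and MIR1306 lie within the gene.

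XPO5 (ENSG00000124571.18, chromosome 6, minus strand, 43522330 to 43576075), the exporter of hairpins, had 3304 and 3441 normalised reads in WT cells, 3746 and 3085 in GFP cells and 2929 and 2864 in RBMXL3 cells. Both RBMXL3 values were the lowest, but the log2 changes of -0.23 against GFP and -0.22 against WT did not pass the limma test (adjusted p = 0.146 and 0.140). The GFP libraries differed from each other by more than the RBMXL3 mean (2896 ± 46.2, SD, n = 2) lay below the WT mean (3373 ± 97.3, SD, n = 2).

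DICER1 (ENSG00000100697.17, chromosome 14, minus strand, 95086228 to 95158010), which cuts the exported hairpin, set the GFP cells apart from both other groups. It had 1775 and 2009 normalised reads in WT cells, 1302 and 1365 in GFP cells and 1770 and 1721 in RBMXL3 cells. Both GFP libraries were the lowest of the 6, and the RBMXL3 libraries lay just under WT. DICER1 fell by 0.50 on the log2 scale in GFP against WT (SE 0.10, limma adjusted p = 0.0265). It was higher by 0.38 in RBMXL3 against GFP (SE 0.10, limma adjusted p = 0.0191), while the change of -0.11 against WT did not pass (limma adjusted p = 0.422). Both calls rest on the same GFP libraries, so they are not separate results. The call against GFP was lost without RBMXL3 replicate 1 (limma adjusted p = 0.191) or 2 (0.161) and with summed TPM (0.201). The call of GFP against WT was lost without WT replicate 1 (limma adjusted p = 0.133) or 2 (0.144), without RBMXL3 replicate 1 (0.0693) or 2 (0.0687), with summed TPM (0.293) and with the replicate block (0.0504).

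TARBP2 (ENSG00000139546.12, chromosome 12, plus strand, 53500921 to 53506431), the double-stranded RNA-binding partner of DICER1, was at 753 and 836 normalised reads in WT cells, 998 and 950 in GFP cells and 927 and 1020 in RBMXL3 cells. Both transduced groups lay above WT. The log2 change was 0.29 in RBMXL3 against WT (limma adjusted p = 0.0624), 0.29 in GFP against WT (limma adjusted p = 0.143) and -0.00 between the transduced groups (limma adjusted p = 0.991), and none of these passed.

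AGO1, AGO3 and AGO4 lie in tandem on the plus strand of chromosome 1, in the order AGO4 (ENSG00000134698.11, 35808172 to 35857890), AGO1 (ENSG00000092847.14, 35869808 to 35930528) and AGO3 (ENSG00000126070.20, 35930718 to 36072500). The gap is 11917 bases between AGO4 and AGO1 and 189 bases between AGO1 and AGO3. The 3 neighbours did not move as a block. AGO1 fell in RBMXL3 cells against both controls, AGO3 fell against WT, and AGO4 was not called.

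AGO1 had 2371 and 2373 normalised reads in WT cells, 2570 and 2107 in GFP cells and 1806 and 1881 in RBMXL3 cells. Both RBMXL3 libraries were below all 4 controls. The log2 change was -0.33 (SE 0.11) against GFP, with a limma adjusted p of 0.0448, and -0.36 (SE 0.11) against WT, with a limma adjusted p of 0.0252. The call against GFP was lost without any of WT replicate 1 (limma adjusted p = 0.0770) or 2 (0.0771), GFP replicate 1 (0.108) and RBMXL3 replicate 1 (0.293) or 2 (0.219), in DESeq2 (0.0518) and with the replicate block (0.0686). With summed TPM, AGO1 changed by -0.01 against GFP and 0.02 against WT, and the call against WT was also lost without WT replicate 1 (0.128) or 2 (0.104) and without RBMXL3 replicate 1 (0.195) or 2 (0.139).

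AGO3 had 415 and 473 normalised reads in WT cells, 368 and 362 in GFP cells and 332 and 356 in RBMXL3 cells. The RBMXL3 libraries were the lowest, just under GFP. The log2 change against WT was -0.34 (SE 0.12, limma adjusted p = 0.0491), and against GFP it was -0.08 (limma adjusted p = 0.680). The call against WT was lost in edgeR (adjusted p = 0.0559) and DESeq2 (0.110), with the replicate block (0.0719), and without WT replicate 1 (0.0840) or 2 (0.238) or RBMXL3 replicate 1 (0.300) or 2 (0.179).

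AGO4 had 302 and 379 normalised reads in WT cells, 422 and 295 in GFP cells and 412 and 405 in RBMXL3 cells. The GFP libraries span the whole range of the 6, and the log2 changes of 0.20 against GFP and 0.25 against WT did not pass (limma adjusted p = 0.414 and 0.253). AGO2 (ENSG00000123908.12, chromosome 8, minus strand, 140520156 to 140635619), the Argonaute known for slicing its targets, had 3580 and 3992 normalised reads in WT cells, 3146 and 2763 in GFP cells and 3104 and 3179 in RBMXL3 cells. Both transduced groups lay below WT. The log2 change was -0.36 in GFP against WT (limma adjusted p = 0.0725), -0.27 in RBMXL3 against WT (limma adjusted p = 0.0682) and 0.09 between the transduced groups (limma adjusted p = 0.567), none past the threshold.

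TNRC6A (ENSG00000090905.19, chromosome 16, plus strand, 24610209 to 24827632), the Argonaute partner, had 1156 and 1194 normalised reads in WT, 1383 and 1022 in GFP and 975 in both RBMXL3 libraries. The RBMXL3 libraries were the lowest, and the log2 changes of -0.28 against GFP and -0.26 against WT did not pass (limma adjusted p = 0.141 and 0.140).

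**Figure D1:**
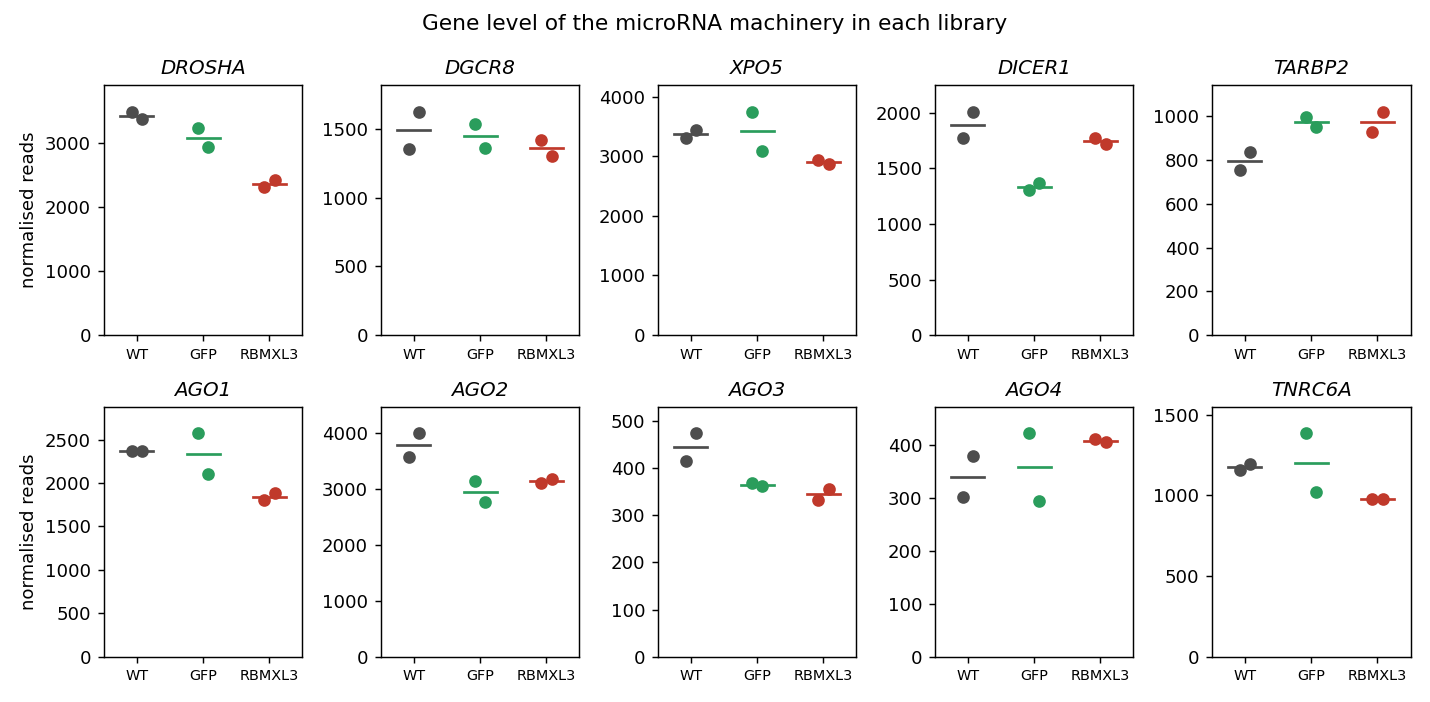
Normalised reads (vertical axis, from 0) of each of the 10 genes in the 2 libraries of WT, GFP and RBMXL3 cells (points), with the group mean as a line. DROSHA and AGO1 show both RBMXL3 points below all 4 control points, and DICER1 shows both GFP points, 1302 and 1365, below the other 4.

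Counted over the machinery, RBMXL3 against GFP called 1 of the 10 genes higher (DICER1) and 2 lower (DROSHA, AGO1), where 10.5% of all 14292 genes tested were called higher and 10.4% lower. RBMXL3 against WT called 0 higher and 3 lower (DROSHA, AGO1, AGO3), where 14.6% of all genes were called higher and 15.3% lower. GFP against WT called 0 higher and DICER1 lower, where 1.76% of all genes were called higher and 1.91% lower. Against both controls 0 of the 10 were called higher and 2 lower, beside 6.88% and 6.86% of all genes. The threshold for a call was a Benjamini-Hochberg adjusted p under 0.05, and the choice of members used these contrasts, so the counts are a description. The comparisons share libraries: RBMXL3 is in the first pair of them, WT in the last pair, and GFP in the first and the last. The median log2 change of the 10 was -0.08, -0.24 and -0.03 in the 3 comparisons, and that of all genes 0.00, -0.01 and -0.01. With no filter on low values DROSHA against WT was the only call among the 10, and quantile normalisation removed both AGO1 calls (limma adjusted p = 0.0508 and 0.0604). With summed TPM, limma called 0 of the 10 in any comparison, and at an unadjusted p under 0.05 it had 1 (AGO3) in RBMXL3 against GFP, 3 (AGO3, DROSHA, TARBP2) against WT and 2 (AGO4, DICER1) between the controls. That scaling moved the median of all genes to 0.13 in RBMXL3 against GFP and raised the higher calls from 50.3% to 78.8% of all calls there, and from 48.8% to 60.7% against WT.

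**Figure D2:**
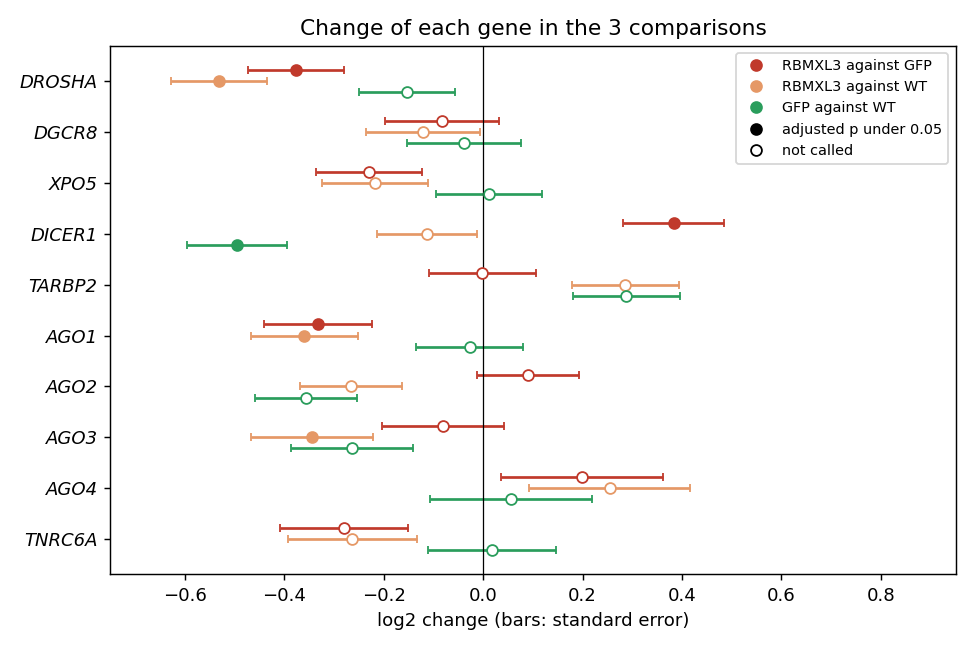
Log2 change (horizontal axis) of the 10 genes for RBMXL3 against each control and for GFP against WT, with bars for the standard error and filled points for an adjusted p under 0.05. DROSHA lies furthest to the left, at -0.53 against WT, and DICER1 changes sign between the comparison with GFP (0.38) and that of GFP with WT (-0.50). The same GFP libraries stand on opposite sides of those comparisons.

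Levels between genes were compared per length, as TPM summed over a gene's transcripts (transcript abundance scaled by length and to a fixed total, which keeps no depth). DROSHA had the highest mean in each group, at 71.8 ± 11.4 TPM for WT, 64.9 ± 9.92 for GFP and 52.6 ± 5.50 for RBMXL3 (SD, n = 2 each). TARBP2 (38.96 ± 1.64 in WT) and XPO5 (37.6 ± 0.161) followed and did not differ beyond their spread in WT, while in RBMXL3 cells TARBP2 (48.7 ± 3.80) was above XPO5 (35.9 ± 1.17) and overlapped DROSHA. DGCR8 (22.6 ± 8.24 in WT) and AGO2 (17.7 ± 0.297) came next and overlapped. TNRC6A (11.5 ± 1.02), AGO1 (9.88 ± 1.09) and DICER1 (9.74 ± 0.0659) lay close together in WT, with AGO1 and DICER1 not separated. AGO3 (6.66 ± 0.691) and AGO4 (2.96 ± 0.851) were the lowest, and in RBMXL3 cells they overlapped, at 4.48 ± 0.576 and 4.37 ± 1.14. AGO2 had the highest mean of the 4 Argonautes in every group, and in GFP cells its libraries (13.6 ± 3.49) overlapped those of AGO1 (10.2 ± 2.60). The rank of DROSHA depends on its retained-intron forms, which held 33.4% to 49.6% of its summed TPM in the controls. By coding TPM alone, DROSHA was above the other genes in both WT libraries. It overlapped TARBP2 and XPO5 in GFP cells. In RBMXL3 cells DROSHA (35.88 and 41.85) overlapped TARBP2 (33.7 and 35.95).

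AGO3 and DROSHA each had an annotated retained-intron isoform that was a large share of the gene in the controls and small or listed at 0 in RBMXL3 cells. The AGO3 form was among the values that chose these genes, so all isoform shares are given as a description with no test. AGO3-206 has 3 exons and 548 bases, and the last of them reads on past a splice donor into 81 bases of intron. It held 33.9% and 48.8% of the summed TPM of AGO3 in WT cells, 43.8% and 41.8% in GFP cells and 0% and 9.36% in RBMXL3 cells. Its level was 2.09 and 3.49 TPM in WT cells, 3.13 and 2.37 in GFP cells and 0 and 0.381 in RBMXL3 cells, so a few TPM carry the share. The coding TPM of AGO3 was 4.35 and 3.04 in the RBMXL3 libraries, which overlapped both WT (3.65 and 3.40) and GFP (3.18 and 3.01). Among the coding forms, AGO3-204, of 6 exons and 1035 bases, held 13.0% and 0% in WT cells, 7.80% and 16.4% in GFP cells and 49.1% and 33.7% in RBMXL3 cells, above all controls.

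DROSHA-213 has 8 exons and 1261 bases, and opens with 377 bases of the intron before an exon that the coding forms splice to. It was at 16.9 and 18.0 TPM in WT, 11.6 and 18.2 in GFP and listed at 0 in both RBMXL3 libraries. Its share of DROSHA was 26.5% and 22.6% in WT and 20.0% and 25.2% in GFP. The main coding form DROSHA-220 (35 exons, 4681 bases) was at 26.7 and 27.6 TPM in WT cells, 25.1 and 19.4 in GFP cells and 22.6 and 24.3 in RBMXL3 cells, where the RBMXL3 values lay within the range of the controls. All coding DROSHA transcripts together gave 35.9 and 41.8 TPM in the RBMXL3 libraries, which overlapped the WT values of 42.4 and 39.4. Both RBMXL3 values lay above the GFP values of 32.8 and 30.7, whereas the reads of the gene were lower than in GFP. Of the other retained-intron forms, DROSHA-203 (7 exons) held 6.91% and 10.7% in WT cells, 15.7% and 16.3% in GFP cells and 11.6% and 20.4% in RBMXL3 cells. The short coding form DROSHA-218 held 3.98% to 7.09% in the controls and 11.8% and 13.4% in RBMXL3.

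The intron edges that set these 2 isoforms apart are shown with the annotated exon in lower case and retained intron in capitals, 5′ to 3′ on the transcribed strand, as GENCODE 29 places them on GRCh38. AGO3-206 is drawn at chr1:35973472-35973592, plus strand, with the last 40 exon bases and the whole retained part, which begins with the GT of the donor that 4 of the 7 AGO3 transcripts use, 3 of them coding. DROSHA-213 is drawn at chr5:31422905-31423044, minus strand, with the last 100 intron bases, which end in the AG of the acceptor that 6 of the 21 annotated DROSHA transcripts use, 4 of them coding, and then 40 exon bases.
AGO3-206: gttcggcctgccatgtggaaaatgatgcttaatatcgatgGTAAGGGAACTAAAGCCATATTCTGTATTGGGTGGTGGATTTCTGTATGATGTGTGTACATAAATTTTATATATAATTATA
DROSHA-213: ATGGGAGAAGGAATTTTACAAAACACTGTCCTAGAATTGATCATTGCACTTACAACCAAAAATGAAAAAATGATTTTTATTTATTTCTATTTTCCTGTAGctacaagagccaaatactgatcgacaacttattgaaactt

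**Figure D3:**
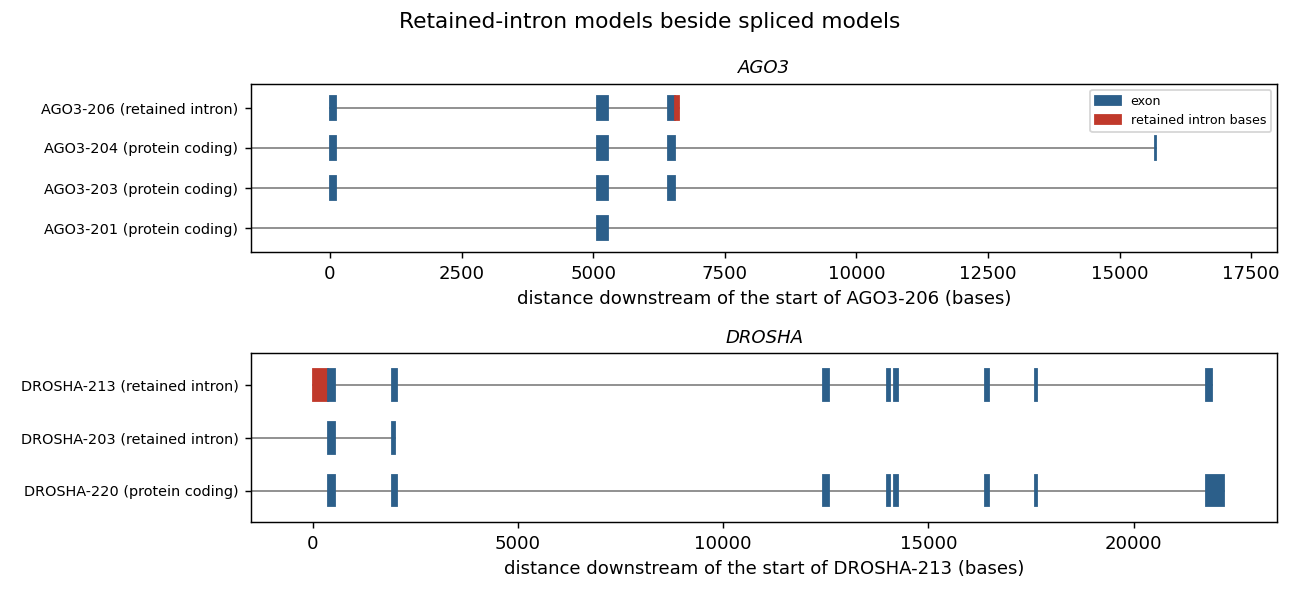
Exons (blue) and retained intron bases (red) of AGO3-206 and DROSHA-213 beside other isoforms of the same gene, as distance in bases downstream of the start of the retained-intron isoform. The retained part is 81 bases at the 3′ end of AGO3-206 and 377 bases at the 5′ end of DROSHA-213.

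**Figure D4:**
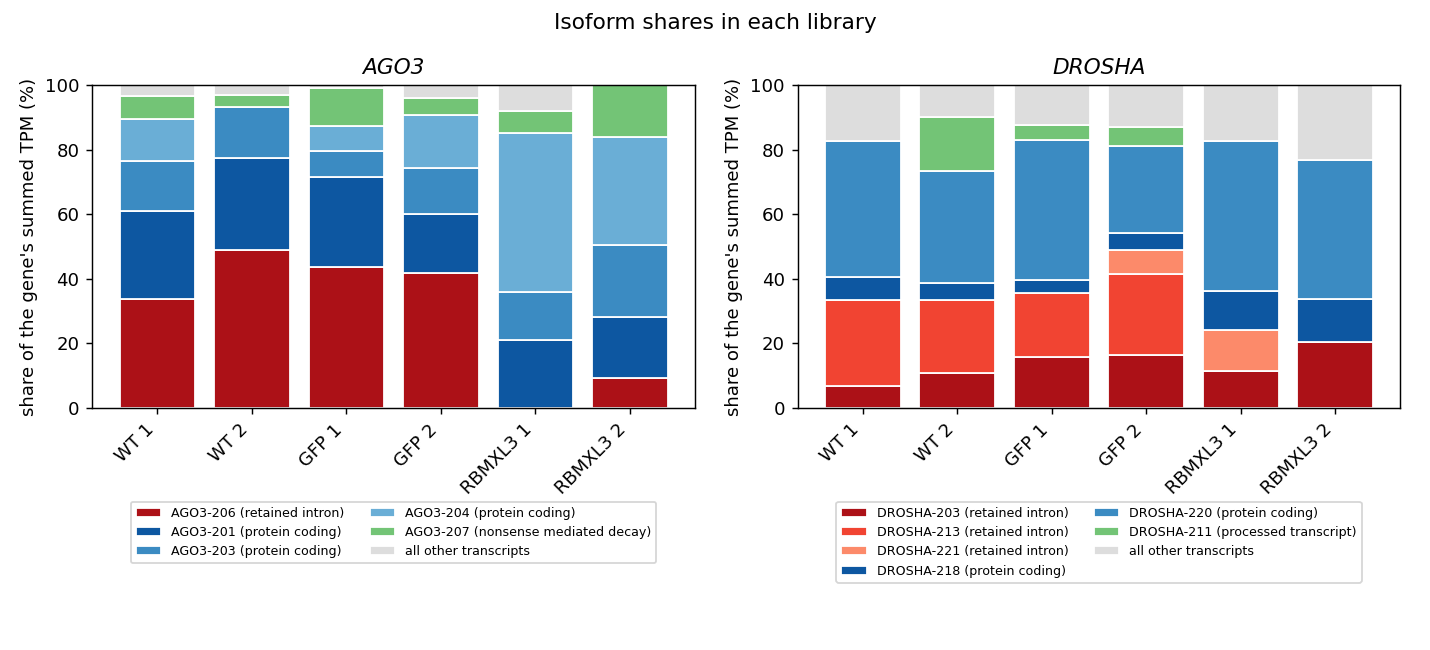
Share of the summed TPM (vertical axis, percent) held by each named AGO3 and DROSHA isoform in the 6 libraries, with retained-intron forms in reds and coding forms in blues. AGO3-206 holds 33.9% to 48.8% in the 4 controls and at most 9.36% in RBMXL3, and DROSHA-213 disappears from both RBMXL3 bars.

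The other machinery genes did not share this pattern. DGCR8-210, a retained-intron form of 11 exons, held 7.55% and 10.3% in WT cells, 10.8% and 8.45% in GFP cells and 19.4% and 13.0% in RBMXL3 cells, which is higher than in all controls. Of 39 named isoforms (at least 10% of their gene in 1 library, or 5% for a retained intron), 3 had both RBMXL3 shares below all 4 controls and 4 had both above (AGO3-204, DROSHA-218, DGCR8-210 and TNRC6A-209). Of the 12 with a retained intron, 2 were below and 1 above. A background was taken from GENCODE 29 transcripts of genes with more than 1 transcript. Each gene had a summed TPM of at least 2.36, the lowest of any member, in every library. There, 8.73% of 4721 retained-intron transcripts under the same rule, and 11.3% of 32145 transcripts of all types, had both RBMXL3 shares below all controls. For shares above all controls, no count over all transcripts was made. The rule used the isoform shares, so nothing is read from the counts in either direction. Retained-intron transcripts took 3.98% to 4.61% of all TPM in the controls and 4.23% and 4.28% in RBMXL3, inside that range. Several isoforms were high in 1 library: DGCR8-204 held 60.0% in GFP replicate 1 and was listed at 0 in the other 5. The third isoform below all controls was the coding TNRC6A-203, at 32.5% to 43.1% in the controls and 23.3% and 29.2% in RBMXL3.

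The 2 AGO1 forms differ in length, 13708 bases for AGO1-201 and 3996 for AGO1-202, both coding. AGO1-202 held 6.06% and 15.2% in WT cells, 31.5% and 11.4% in GFP cells and 25.7% and 22.6% in RBMXL3 cells. AGO1-201 was at 8.56 and 8.97 TPM in WT cells, 8.24 and 7.31 in GFP cells and 7.14 and 7.76 in RBMXL3 cells. Reads per gene count a long transcript more often than TPM does, and AGO1 was called lower by reads and changed by 0.02 or less with summed TPM. The cause of that difference was not tested. The 3 retained-intron forms of DICER1 were listed at 0 in every library, and its shares moved between DICER1-201 and DICER1-203 within each group.

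The wider pathway was taken from 7 lists of 83 genes in all, made with earlier results of these data known. RBMXL3 against GFP called 3 higher and 15 lower, RBMXL3 against WT called 2 higher and 25 lower, and GFP against WT called 1 each way. The lower calls were 18.1% and 30.1% of the 83 against GFP and WT, beside 10.4% and 15.3% of all genes, and the higher calls 3.61% and 2.41%, beside 10.5% and 14.6%. Against both controls 14 (16.9%) were lower, beside 6.86% of all genes, and 1, KHSRP, was higher (1.20%), beside 6.88%. The median log2 change was -0.10 against GFP and -0.14 against WT. The counts moved with the processing. With summed TPM the lower calls were 4 and 10 and the median against GFP turned to 0.03. With quantile normalisation they were 9 and 16 and the median against GFP was -0.0042, and with no filter they were 5 and 12. Without RBMXL3 replicate 1 the lower calls were 5 against GFP and 7 against WT, without RBMXL3 replicate 2 they were 4 and 4, without WT replicate 1 they were 12 and 7, and without WT replicate 2 they were 12 and 16. They rose to 28 against GFP without GFP replicate 2, and the higher calls there to 10.

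HSPA8, a chaperone that takes part in loading Argonautes, was the largest fall. It had 75852 and 67862 normalised reads in WT cells, 80638 and 70350 in GFP cells and 38108 and 37531 in RBMXL3 cells. The log2 change was -0.99 (SE 0.13) against GFP and -0.92 (SE 0.13) against WT (limma adjusted p = 0.000625 and 0.00043), called in every alternative run. HSPA8 has processed pseudogenes, and how the counting treated shared reads is not given in the sources used here. FKBP4, a co-chaperone of HSP90, was also lower against both (-0.40 and -0.31, limma adjusted p = 0.0211 and 0.0479), calls lost in 5 and 8 of 14 alternatives. Both were lost with no filter, quantile normalisation (-0.13 and -0.12), summed TPM (-0.05 and -0.11) and without either RBMXL3 library, and the call against WT also without either WT library and with the replicate block (0.0797). PRKRA, the other RNA-binding partner of DICER1, was not called (-0.17 and -0.29).

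Of the 17 nuclear cofactors, ILF2 and NCBP1 were lower and KHSRP higher against both controls. That was 11.8% lower and 5.88% higher, beside 6.86% and 6.88% of all genes. ILF2, a double-stranded RNA-binding factor, had 21824 and 19294 normalised reads in WT cells, 21482 and 21025 in GFP cells and 14483 and 13761 in RBMXL3 cells, a log2 change of -0.59 and -0.54 (limma adjusted p = 0.0031 and 0.00317), lost without RBMXL3 replicate 2 (0.0815 and 0.0780) and, against GFP, with summed TPM (-0.33, limma adjusted p = 0.0706). KHSRP, which binds the loops of some hairpins, let-7 among them, rose by 0.36 and 0.35 (limma adjusted p = 0.0272 and 0.0235), from 13866 to 15061 in the controls to 17960 and 18955. The microprocessor cofactor ERH was lower against GFP alone (-0.50, limma adjusted p = 0.0173), with GFP the highest group, at 5238 and 4798, and that call was lost in 5 of 14 alternatives: without either RBMXL3 library, with no filter, with quantile normalisation (0.0543) and with summed TPM (-0.28, limma adjusted p = 0.283). Both KHSRP calls were lost without either RBMXL3 library, with no filter and with summed TPM (0.33 and 0.19). The KHSRP call against GFP was also lost with the replicate block (0.0520) and that against WT without WT replicate 1 (0.0640) or 2 (0.127).

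In the other groups the genes lower against both controls were LIN28A among 6 of LIN28 and terminal uridylation, RAN among 4 of nuclear transport, and CUL3 and ELOC among 10 of Argonaute turnover. They were CNOT9, EIF4E2 and LIMD1 among 33 silencing effectors and XRN2, PNPT1 and PARN among 5 of small RNA decay. In that order these were 16.7%, 25%, 20%, 9.09% and 60% of the lists, beside 6.86% of all genes. Most of the lists are short, so a single gene moves their shares far. ELOC, a subunit of the cullin ligases that include ZSWIM8, fell by 0.80 and 0.51 on the log2 scale (limma adjusted p = 0.000822 and 0.00506), the call against WT being lost without WT replicate 2 (0.0612) or RBMXL3 replicate 2 (0.0722). The 3 exonucleases of small RNA decay fell by 0.37 to 0.40 against GFP and by 0.47 to 0.60 against WT, in a list of 5. Against GFP 0 of the 5 were called with summed TPM, with no filter or without RBMXL3 replicate 1 or 2. Against WT 1 was called with summed TPM, without RBMXL3 replicate 2 or without WT replicate 1, and 2 without RBMXL3 replicate 1. LIN28A, which blocks let-7 processing, had 16547 and 14060 normalised reads in WT cells, 14789 and 16619 in GFP cells and 11935 and 12244 in RBMXL3 cells (-0.37 and -0.33, limma adjusted p = 0.0345 and 0.0412). Its calls were lost with quantile normalisation (-0.18 and -0.19), summed TPM (-0.01 and -0.09), no filter, the replicate block (0.0607 and 0.0690) and without either RBMXL3 library, and that against WT also without WT replicate 1 (-0.22). LIN28B was not called (0.21 and -0.12). Of the TNRC6A paralogs, TNRC6B was lower against WT (-0.46, limma adjusted p = 0.0362), a call lost without any WT or RBMXL3 library, with no filter (0.160) and with summed TPM (-0.12, limma adjusted p = 0.712), and TNRC6C was not called in any comparison.

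**Figure D5:**
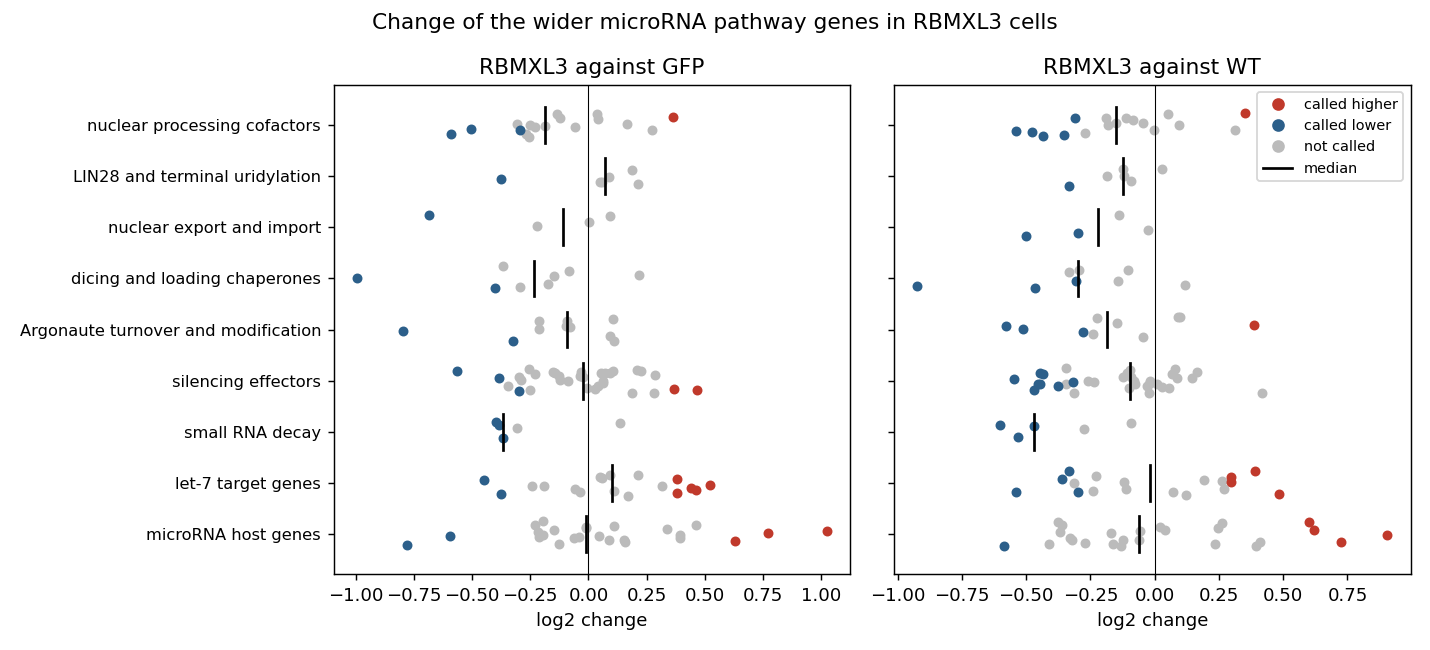
Log2 change (horizontal axis) of the tested genes of each list in RBMXL3 against GFP (left) and against WT (right), one point per gene, red for called higher, blue for called lower and grey for not called, with the list's median as a line. HSPA8 is the blue point furthest left among the chaperones, at -0.99 and -0.92.

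Transcript usage, tested with limma's diffSplice, was called in 15 of the 74 pathway genes with at least 2 expressed transcripts in RBMXL3 against GFP, in 13 against WT and in 1 of GFP against WT. Of all 8882 genes tested, 12.0%, 12.0% and 1.72% were called. Of the genes called against both controls, PABPC1, the poly(A)-binding protein, had the adjusted Simes p-values 1.05e-07 and 4.78e-07 and HSPA8 7.77e-10 and 3.75e-09. TARDBP, HNRNPA2B1 and SAFB, all nuclear cofactors, P4HA1, ELOC, DCP2, EDC3 and LSM14A were among the others called against both. When shares were tested in place of log2 TPM, P4HA1 alone was still called against both (limma adjusted p = 0.0235 and 0.0223).

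Mature microRNAs are not measured by these polyadenylated RNA libraries, but the spliced host transcripts of some are. Of 84 host genes listed, 25 were tested. Against GFP 3 were called higher and 2 lower, against WT 4 higher and 1 lower, and MIR17HG and MIR205HG were higher against both. The higher calls were 12.0% and 16.0% of the 25 and the lower 8% and 4%, beside 10.5% and 14.6% of all genes higher and 10.4% and 15.3% lower, and those higher against both 8%, beside 6.88%. MIR205HG had 312 and 272 normalised reads in WT cells, 294 and 353 in GFP cells and 583 and 550 in RBMXL3 cells, a log2 change of 0.77 and 0.90 (limma adjusted p = 0.00227 and 0.000513). With summed TPM the changes were 0.31 and 0.49 and not called. MIR17HG was low, at 40 and 51 normalised reads in WT cells, 17 and 54 in GFP cells and 103 and 79 in RBMXL3 cells. Its log2 change was 1.02 against GFP (limma adjusted p = 0.0149) and 0.73 against WT (limma adjusted p = 0.0478), and the call against WT was lost in 9 of 12 alternatives, among them DESeq2 (0.0660) and the removal of any WT or RBMXL3 library. With GFP replicate 1 left out, MIR17HG differed from GFP by 0.55 and was not called, nor without RBMXL3 replicate 1 or with no filter.

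MIR302CHG, which hosts the cluster known from pluripotent and germ cell tumour cells, had 650 and 1281 normalised reads in WT cells, 1135 and 1332 in GFP cells and 702 and 711 in RBMXL3 cells. The WT libraries differed by more than the means of any pair of groups. It was called lower against GFP (-0.78, limma adjusted p = 0.0245) but not in DESeq2 (0.162), with no filter (0.188), with summed TPM (0.0949) or without GFP replicate 2 (0.0726), RBMXL3 replicate 1 (0.0758) or 2 (0.0775), and not against WT (-0.36, limma adjusted p = 0.227). MIR4458HG was called lower and MIR22HG higher against GFP alone (-0.59 and 0.63, limma adjusted p = 0.0121 and 0.0301), and MIR924HG higher and MIRLET7IHG lower against WT alone (0.62 and -0.59, limma adjusted p = 0.0188 and 0.0471). The low host MIR210HG was also called higher against WT. These calls were lost in 4 of 14 alternatives for MIR4458HG, 8 of 13 for MIR22HG, 5 of 12 for MIR924HG and 7 of 12 for MIRLET7IHG. All 4 were lost without RBMXL3 replicate 1 and with no filter, and the first 3 also without RBMXL3 replicate 2. MIR22HG was also lost without either WT library, without GFP replicate 1 (0.37), in DESeq2 (0.0541) and with summed TPM (0.0616), and MIR4458HG with summed TPM (0.0513). MIR924HG was also lost without WT replicate 1 and in DESeq2 (0.0501), and MIRLET7IHG without either WT library, with a pseudocount of 0.1 (0.0538), in edgeR (0.0788) and in DESeq2 (0.132), its change being -0.28 without RBMXL3 replicate 1. The other named hosts (at least 50 normalised reads in a group mean), MIR130AHG, MIR1915HG, MIR2052HG, MIR34AHG, MIR4435-2HG, MIR548XHG, MIR600HG, MIR646HG and MIR9-1HG, were not called in any comparison.

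The mature arms of these hosts are shown with the seed, bases 2 to 8, in capitals, since the seed is what an Argonaute reads, and come from RefSeq on GRCh38.p14. The MIR17HG arms are miR-17-5p and miR-20a-5p, with 1 seed, miR-18a-5p, miR-19a-3p and miR-19b-3p, with another, and miR-92a-3p. The 4 miR-302 arms share 1 seed, and miR-367-3p, from the same host, shares the seed of miR-92a-3p.
miR-17-5p: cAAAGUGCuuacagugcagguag
miR-20a-5p: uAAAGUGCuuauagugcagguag
miR-18a-5p: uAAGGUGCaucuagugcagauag
miR-19a-3p: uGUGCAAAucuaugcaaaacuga
miR-19b-3p: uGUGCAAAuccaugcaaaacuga
miR-92a-3p: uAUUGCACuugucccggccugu
miR-302a-3p: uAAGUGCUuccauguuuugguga
miR-302b-3p: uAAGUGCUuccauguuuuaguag
miR-302c-3p: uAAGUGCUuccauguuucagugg
miR-302d-3p: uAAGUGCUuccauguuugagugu
miR-367-3p: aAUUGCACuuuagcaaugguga
miR-205-5p: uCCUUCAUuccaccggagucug

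Genes known as let-7 targets were called in both directions. Of 18, DICER1 and LIN28A included, 5 were higher and 2 lower against GFP and 4 were higher and 4 lower against WT. The higher calls were 27.8% and 22.2% of the 18 and the lower 11.1% and 22.2%, beside 10.5% and 14.6% of all genes higher and 10.4% and 15.3% lower. Against both controls 1 of the 18 was higher and 1, LIN28A, was lower. Each was 5.56% of the list, beside 6.88% of all genes higher and 6.86% lower. HMGA2, a classical target, was higher against GFP (0.46, limma adjusted p = 0.0113) and not called against WT (0.27, limma adjusted p = 0.0794). The call against GFP was lost with summed TPM (0.0865) and without RBMXL3 replicate 1 (0.153) or 2 (0.0942). The list's median was 0.10 against GFP and -0.02 against WT. In GFP against WT 0 were higher and 2 lower (11.1%), beside 1.76% and 1.91% of all genes, and the median was -0.13. Those 2 calls were lost with no filter, summed TPM or the replicate block, and without any WT or RBMXL3 library. Both comparisons that involve GFP rest on the same GFP libraries. With quantile normalisation 7 were higher and 1 lower against GFP, and 5 higher and 1 lower against WT. With summed TPM 0 of 18 were called against GFP and 1 in each direction against WT. With no filter 2 were higher and 0 lower against GFP and 1 in each direction was called against WT. Without RBMXL3 replicate 1 neither comparison called any of the 18 (0 and 0), and without RBMXL3 replicate 2 the counts were 0 against GFP and 1, lower, against WT. Leaving out a WT library gave 4 higher and 1 lower against GFP, and against WT 1 higher and 0 lower without replicate 1 and 0 higher and 2 lower without replicate 2.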

How the data were processed

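Polyadenylated RNA was sequenced from 6 libraries made with a stranded mRNA kit, per the labels' protocols. Trim Galore 0.6.10, STAR 2.7.11a, DESeq2, Salmon 1.10.2 and GRCh38/hg38 are named in the submitters' processing notes; the annotation release, read counter and strand setting are not given in the sources used here. The deposited gene table holds a normalised signal, counts that the authors divided by a size factor per library: 100% of its 145320 nonzero values came out as whole reads (tolerance 0.01). The deposited transcript table holds TPM, so its depth is unknown. The columns of no sample number 0.

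Gene values were divided by 23.9, so that the mean column total is that of CPM, and kept at 1 or more in at least 2 libraries (14292 genes). The test was limma 3.58.1 under R 4.3.3 on log2(value + 1) (trend, all 6 libraries, 1 coefficient per group, no covariate, two-sided) and adjusted over all genes (Benjamini-Hochberg). Fold changes on this scale understate those of low genes. Alternatives used edgeR 4.0.16 and DESeq2 1.42.0 on recovered reads. Floors of 3 reads cover counting error only. Transcripts were assigned to genes by GENCODE 29, which holds 80.0% of those listed and 94.7% to 95.1% of the TPM of a library. Summed TPM and isoform shares cover these transcripts alone, so isoforms outside that release are left out of them. The scripts were tested on simulated data.

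The members and lists were chosen with earlier results of these data known. The genes named are the 10 members and, from the wider lists, up to 3 rises and 3 falls called against both controls (1 rise was found), 6 fixed genes, and host genes of at least 50 normalised reads in a group mean; other called genes were named after their values were seen. Isoforms named held at least 10% of their gene in 1 library, or 5% for a retained intron. Some genes of the lists count toward the totals but are not reported here by name.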

Additional observations from a re-analysis of the deposited data

How the results depend on the processing

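Of 420 values of the 10 genes under alternatives, 366 kept their direction and side of the threshold, 41 lost the call, 12 gained it and 1 reversed: AGO1 in RBMXL3 against WT was 0.0162 with summed TPM. A further 26 changed sign with no call. Each gained call came from a run without a GFP library, which left a lone library in that group. The gains were XPO5, TNRC6A, AGO2 and TARBP2 against WT, XPO5, TNRC6A and AGO4 against GFP, and AGO2 in GFP against WT. DROSHA against WT was called in 13 of 14 alternatives, the exception being summed TPM (adjusted p = 0.115), whose cause was not tested. Over all genes, the calls in RBMXL3 against GFP, RBMXL3 against WT, GFP against WT and against both controls were 2986, 4271, 524 and 1964. They were 950, 2327, 0 and 673 with no filter and 988, 1638, 0 and 655 with summed TPM, and GFP against WT was 327 with quantile normalisation. Same-numbered libraries showed little shared deviation (r = -0.16, 0.03 and -0.09 for the 3 pairs of groups), so the numbers were not treated as a pairing. A weak correlation cannot exclude a small effect shared by same-numbered libraries, and the labels do not say whether they were handled together. With the replicate block GFP against WT gave 191 calls. Leaving out 1 library gave 658 to 4313 calls against GFP, 1428 to 6163 against WT, 0 to 2780 between the controls and 435 to 2715 against both, with the fewest without an RBMXL3 library or, between the controls, without WT replicate 1; a lone library is assumed to vary like the others. Transcript usage was called in 1069, 1066 and 153 genes in the 3 comparisons. It was called in 225, 226 and 51 when shares were tested, in 654, 638 and 15 at a mean TPM of at least 5, in 287 for GFP against WT with a pseudocount of 0.1, and in 547 to 1520, 470 to 1302 and 102 to 359 when 1 library was left out. Isoform shares over expressed transcripts alone stayed within 1 SD for 66 of 90 group means; AGO3-206 became 54.4% in WT, 55.0% in GFP and 7.55% in RBMXL3, AGO3-204 became 62.1% in RBMXL3, and DROSHA-213 24.6%, 22.7% and 0%. With 2 libraries a group, and fewer than 500 normalised reads for AGO3 and AGO4, small changes cannot be resolved.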
